A study of Mus musculus with 8 samples.

Results

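Expression of 10 genes of neutrophil granules and neutrophil receptors was followed in mouse pancreatic tumours, namely S100a8, S100a9, Ltf, Lcn2, Ngp, Camp, Csf3r, Cxcr2, Clec4e and Clec4d. They were chosen by gene name, and all 10 were found among the 54532 genes of the count table. The tumours were orthotopic, grown in the pancreas of C57BL/6 mice from implanted KPC cells, which derive from mouse pancreatic cancer. The mice received saline (Saline, 4 libraries) or TLQP21, a peptide fragment of the secreted neuronal protein VGF (TLQP21, 4 libraries), for 2 weeks. The question was which transcripts differ between tumours of treated and untreated mice, since the submitters describe slower tumour growth under TLQP21. The sources used here give neither the age of the mice nor the dose, nor whether each library came from a separate animal. All p-values therefore refer to the spread among libraries, which may be partly technical. RNA came from whole tumours, although the labels call the cell type pancreatic cancer cells, so that fewer neutrophils and less RNA per neutrophil cannot be told apart.

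Neutrophils are short-lived phagocytes made in the bone marrow, where granule proteins are transcribed in waves before the cell leaves for the blood. Primary granule proteins such as myeloperoxidase and elastase come early, the proteins of secondary and tertiary granules (Ngp, Camp, Ltf, Lcn2) come later, and transcripts of many of these fall as the cell matures. Mature neutrophils carry abundant calprotectin (S100a8 and S100a9), the receptor for granulocyte colony-stimulating factor (Csf3r) and the receptor for CXC chemokines (Cxcr2). In pancreatic cancer, neutrophils enter the tumour through Cxcr2 and its ligands. Several of the 10 genes are not confined to neutrophils: Lcn2 and Ltf are also made by epithelium, and the C-type lectin receptors Clec4e (Mincle) and Clec4d also by monocytes and macrophages.

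All 10 genes are annotated as protein-coding on GRCm38, and no other gene of the table overlapped them. The 3 granule genes Camp (ENSMUSG00000038357), Ngp (ENSMUSG00000032484) and Ltf (ENSMUSG00000032496) lie on chromosome 9, from 109847379 to 109849617, from 110419747 to 110423012 and from 111019271 to 111042767. S100a8 (ENSMUSG00000056054) and S100a9 (ENSMUSG00000056071) lie 22.6 kb apart on chromosome 3, from 90668978 to 90670035 and from 90692632 to 90695721. Clec4d (ENSMUSG00000030144) and Clec4e (ENSMUSG00000030142) lie 6.52 kb apart on chromosome 6, from 123262111 to 123275265 and from 123281789 to 123289870. Lcn2 (ENSMUSG00000026822) is on chromosome 2 from 32384633 to 32388252, Csf3r (ENSMUSG00000028859) on chromosome 4 from 126024550 to 126044440, and Cxcr2 (ENSMUSG00000026180) on chromosome 1 from 74153989 to 74161246.

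Stretches just upstream of 6 of the genes are given because they form 3 pairs (Ngp with Camp, S100a8 with S100a9, Clec4e with Clec4d) whose levels varied together over the libraries, as described below. Csf3r with Cxcr2 (Pearson r 0.94) and Ltf with Lcn2 (0.93) also varied together, and their stretches are not printed. The printed stretches are RefSeq promoter sequences on GRCm38.p6, each ending before both the RefSeq start and the gene model of the count table, and are written 5′ to 3′ on the strand of the gene. Capitals mark the letters TTNNGNAA, a loose form of the site of C/EBP factors, which drive granulocyte genes, and GAGGAAG, a form of the site of the myeloid factor PU.1, on either strand.
Ngp (chr9:110419558-110419746, plus strand): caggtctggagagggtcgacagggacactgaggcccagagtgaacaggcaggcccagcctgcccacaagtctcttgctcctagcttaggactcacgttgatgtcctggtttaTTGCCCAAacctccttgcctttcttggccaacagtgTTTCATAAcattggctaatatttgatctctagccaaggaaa
Camp (chr9:109849618-109849706, minus strand): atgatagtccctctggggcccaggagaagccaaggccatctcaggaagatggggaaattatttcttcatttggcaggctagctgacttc
S100a8 (chr3:90668821-90668977, plus strand): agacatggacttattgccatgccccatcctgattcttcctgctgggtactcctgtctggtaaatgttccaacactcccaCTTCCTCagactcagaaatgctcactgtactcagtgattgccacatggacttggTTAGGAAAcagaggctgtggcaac
S100a9 (chr3:90695722-90695971, minus strand): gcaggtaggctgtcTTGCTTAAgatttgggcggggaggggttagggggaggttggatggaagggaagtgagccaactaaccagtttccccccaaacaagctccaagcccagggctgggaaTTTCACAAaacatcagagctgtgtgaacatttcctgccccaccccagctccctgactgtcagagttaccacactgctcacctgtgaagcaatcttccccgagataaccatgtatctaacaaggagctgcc
Clec4e (chr6:123289872-123290121, minus strand): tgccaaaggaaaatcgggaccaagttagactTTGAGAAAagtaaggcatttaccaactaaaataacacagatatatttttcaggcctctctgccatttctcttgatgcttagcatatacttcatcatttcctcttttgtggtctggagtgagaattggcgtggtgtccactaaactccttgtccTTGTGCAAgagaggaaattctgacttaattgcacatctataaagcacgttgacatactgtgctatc
Clec4d (chr6:123261857-123262106, plus strand): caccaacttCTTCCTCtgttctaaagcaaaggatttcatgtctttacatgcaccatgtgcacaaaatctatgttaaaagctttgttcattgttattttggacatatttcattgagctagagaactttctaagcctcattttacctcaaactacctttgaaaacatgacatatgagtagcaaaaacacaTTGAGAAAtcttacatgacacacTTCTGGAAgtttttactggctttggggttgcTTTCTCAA
The C/EBP letters occurred 2 times upstream of Ngp, 1 time upstream of S100a8, 2 times upstream of S100a9, 2 times upstream of Clec4e and 3 times upstream of Clec4d. They were not found in the 89 bases of Camp. Of 32851 promoters, 36.8% held them in a stretch of 250 bases, 31.1% in the 189 bases that Ngp had, 27.1% in the 157 bases of S100a8 and 16.7% in 89 bases. The PU.1 letters occurred 1 time each upstream of S100a8 and Clec4d and in 6.34% of promoters over 157 bases and 10.6% over 250 bases. No marked motifs overlapped. Of the genes not printed, Ltf held the C/EBP letters 2 times in 229 bases (35.0% of promoters held them at that length) and no PU.1 letters. Csf3r (141 bases, 25.1% for C/EBP) and Cxcr2 (245 bases, 36.4%) held neither motif, and Lcn2 had fewer than 50 bases upstream. These matches describe the letters only.

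Library totals ran from 28358465 to 33536087 counts, and each of the 10 genes passed the filter on low counts. Saline 2 held transcripts of hepatocytes (summed CPM, defined below, of 10 markers 5055, against 9.4 to 18.8 in the other libraries). In both groups, libraries 1 and 2 held Xist reads and libraries 3 and 4 reads of Y-linked genes, a split the labels do not mention. Saline 4 had the highest level of 9 of the 10 genes, against 16.5% of all 18238 tested genes that were highest in that library, and it also had the highest acinar level (summed CPM of 12 markers 56690, against 11456 to 31278 in the others). With the sex-linked split as a covariate, with acinar genes left out and without Saline 2, the median log2 fold change of the 10 genes between treatments was -1.04, -1.04 and -1.10, against -1.03 with all libraries and genes, and without Saline 4 it was -0.63.

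All 10 genes lay lower in TLQP21 than in Saline, and none passed the threshold. Levels are CPM, the count of a gene divided by the total of its library after trimmed-mean scaling, times 1e6, and differences are log2 fold changes, TLQP21 minus Saline, from edgeR's quasi-likelihood test with 4 libraries per group. The differences ran from -0.33 for Cxcr2 to -2.12 for Camp, with a median of -1.03 against 0.0 over all tested genes, or -0.63 without Saline 4. Each had an adjusted p of 0.9999 by edgeR, and 0.0% of the 18238 tested genes passed in either direction. DESeq2 passed 4 genes, all lower (Blvrb, Cd69, Gpr141 and Ighv7-4; 0.0192% of those it tested), and limma voom with sample weights passed 1 (Ighv7-4; 0.00548%), named after their values were seen, and none of them one of the 10. An unadjusted p under 0.05 was reached by 7 of the 10, all lower, against 2.26% of all tested genes that were lower at that level, 0.795% that were higher and 3.06% in either direction. The unadjusted p of Csf3r, Cxcr2 and Clec4d did not reach it. All 10 lay below 0, against 49.4% of tested genes, but the genes share their libraries and are not independent. The ranges of the groups overlapped for all 10, against 1.66% of tested genes whose ranges did not overlap, 0.844% of them lower. Without Saline 4 the number with an unadjusted p under 0.05 was 2, without TLQP21 2 it was 4 and without TLQP21 4 it was 2, while all 10 stayed below 0 without any single library. The 10 genes together took 0.0707 to 0.17% of all counts in Saline and 0.0419 to 0.0842% in TLQP21.

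**Figure D1:**
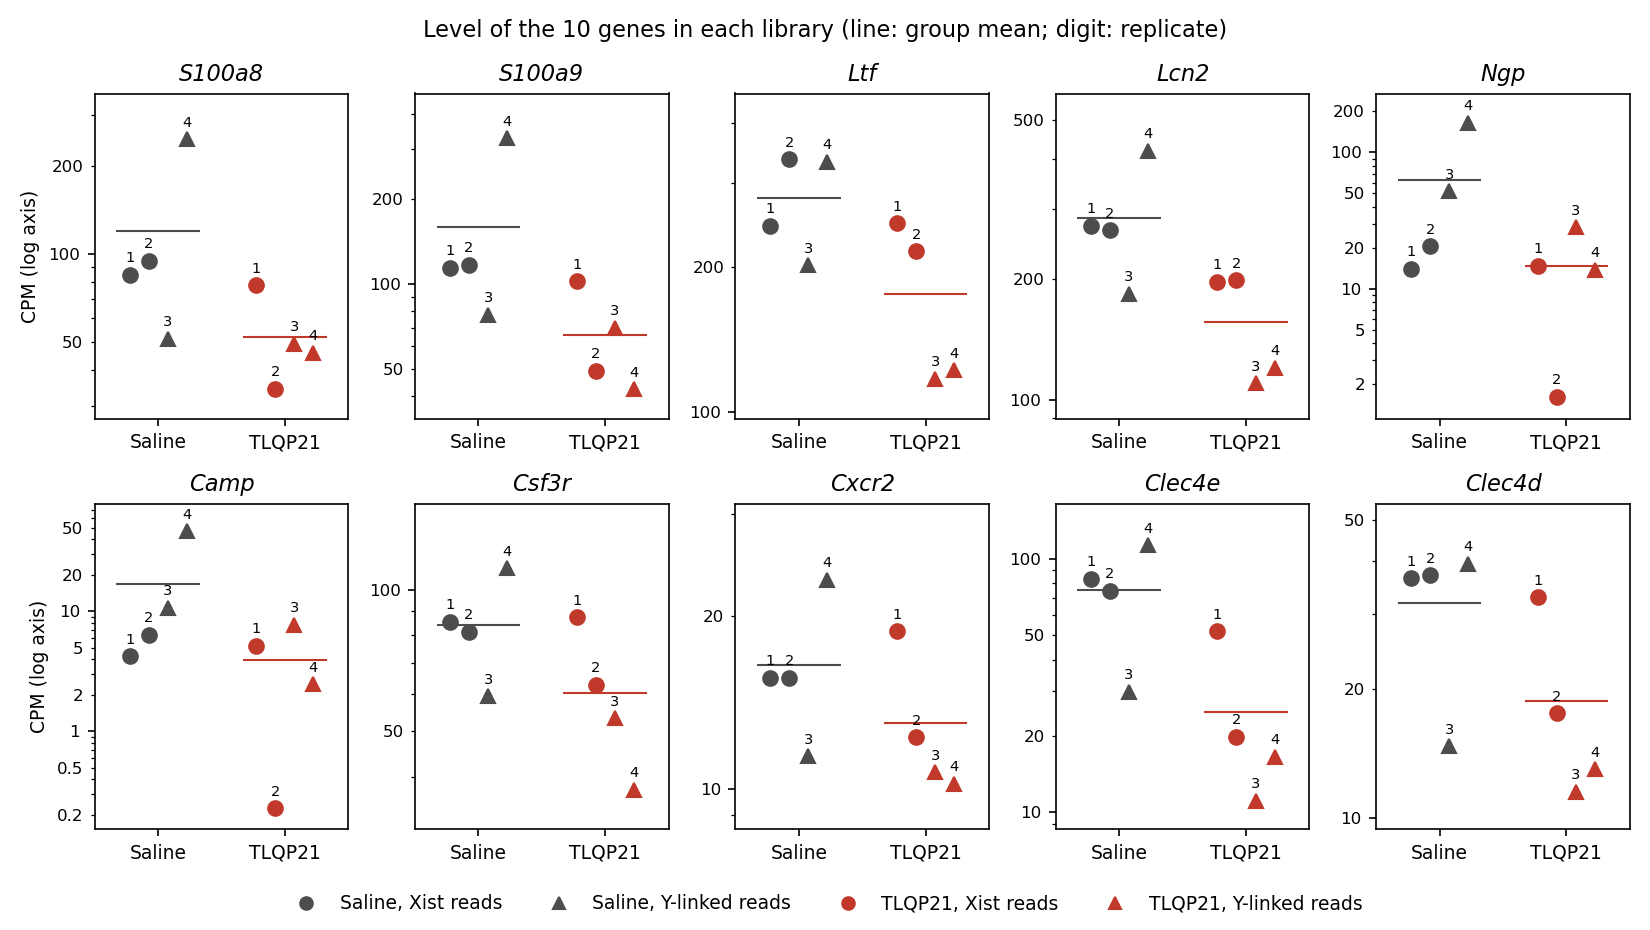
Level of each of the 10 genes in CPM (vertical log axis, a separate scale per gene) in the 4 Saline and 4 TLQP21 libraries, with the group mean as a line, the replicate as a digit and the marker shape giving Xist or Y-linked reads. Saline 4 is highest for 9 genes, and the groups overlap for all 10.

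The calprotectin genes had the highest group means of the 10 per base of gene length. S100a9, which binds S100a8 to form calprotectin, a calcium-binding and antimicrobial complex, was at 114, 117, 77.6 and 328 CPM in Saline 1 to 4 and at 102, 49.2, 69.8 and 42.3 CPM in TLQP21 1 to 4. Saline 4 stood far above all others, and only TLQP21 1 reached above Saline 3. The log2 fold change was -1.27 (SE 0.44, 95% interval -2.26 to -0.28), and without Saline 4 it was -0.65. S100a8 was at 84.7, 94.7, 51.1 and 248 CPM in Saline and at 77.9, 34.4, 49.2 and 45.7 CPM in TLQP21. The order of the libraries was close to that of S100a9, and the log2 fold change was -1.21 (SE 0.44, 95% interval -2.20 to -0.21), or -0.57 without Saline 4. Scaled to gene length, S100a9 was at 304 ± 218 FPKM (CPM per kb of gene) in Saline and 126 ± 51.3 in TLQP21, and S100a8 at 172 ± 126 and 74.7 ± 26.7 (SD, n = 4). The ratio of S100a9 to S100a8 per base stayed between 1.23 and 2.02 in the 8 libraries, although the levels themselves spanned 7.74 and 7.20 times.

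Of the secondary granule genes, Ltf and Lcn2 had higher mean levels per base in both groups than Ngp and Camp. Ltf, the iron-binding protein lactoferrin, was at 244, 336, 202 and 332 CPM in Saline and at 247, 216, 117 and 122 CPM in TLQP21. TLQP21 1 and 2 lay inside the Saline range and TLQP21 3 and 4 below it (log2 fold change -0.66, SE 0.27, 95% interval -1.26 to -0.07). Lcn2, the siderophore-binding protein lipocalin 2, was at 272, 265, 184 and 419 CPM in Saline and at 197, 199, 110.0 and 120.0 CPM in TLQP21. TLQP21 3 and 4 again lay below every Saline library, and TLQP21 1 and 2 lay above Saline 3 only (-0.86, SE 0.27, 95% interval -1.47 to -0.25). Per base, Lcn2 was at 109 ± 37.4 and 59.7 ± 18.3 FPKM and Ltf at 80.7 ± 19.2 and 50.9 ± 19.1, levels that overlap within their spread. Because both genes are also made by epithelium, 12 epithelial markers (Epcam, keratins, claudins and others) were set beside them. Their summed level was 6919 to 7304 CPM in Saline and 7239.9 to 7651 in TLQP21, 8 of 12 lay above 0, none had an unadjusted p under 0.05, and the median log2 fold change was 0.09.

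Ngp and Camp had the largest differences between groups and the largest ratio of highest to lowest library. Ngp, neutrophilic granule protein, was at 14, 20.5, 51.9 and 165 CPM in Saline and at 14.8, 1.61, 28.3 and 13.8 CPM in TLQP21. Saline 3 and 4 stood above every TLQP21 library, Saline 1 and 2 lay among them, and TLQP21 2 stood far below all others. Its log2 fold change was -2.11 (SE 0.88, 95% interval -4.07 to -0.14), and without Saline 4 it was -0.99. Camp, which encodes the antimicrobial cathelicidin, was at 4.25, 6.41, 10.7 and 46.6 CPM in Saline and at 5.20, 0.23, 7.77 and 2.47 CPM in TLQP21 (-2.12, SE 0.94, 95% interval -4.22 to -0.02; -0.87 without Saline 4). In TLQP21 2 Camp had 8 reads, with an exact 95% Poisson interval of 3.45 to 15.8 that covers counting error only, and Ngp had 56. The highest library exceeded the lowest 103 times for Ngp and 203 times for Camp, against 2.26 times for Cxcr2 and 2.94 times for Csf3r.

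The receptors that mark mature neutrophils had the smallest differences of the 10 genes. Csf3r, which signals growth and survival, was at 85.4, 81.4, 59.4 and 111 CPM in Saline and at 87.4, 62.8, 53.3 and 37.6 CPM in TLQP21. Only Saline 4 exceeded TLQP21 1, and 2 TLQP21 libraries lay below every Saline library (-0.48, SE 0.25, 95% interval -1.05 to 0.08), and the difference was -0.72 without TLQP21 1 and -0.31 without TLQP21 4. Cxcr2, which guides neutrophils towards CXC chemokines, was at 15.6, 15.6, 11.4 and 23.1 CPM in Saline and at 18.8, 12.3, 10.7 and 10.2 CPM in TLQP21. Its groups overlapped in the same way (-0.33, SE 0.25, 95% interval -0.90 to 0.23), and the difference was -0.57 without TLQP21 1 and -0.13 without Saline 4. The ratio of Csf3r to Cxcr2 per base stayed between 3.11 and 4.64 over the 8 libraries.

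**Figure D2:**
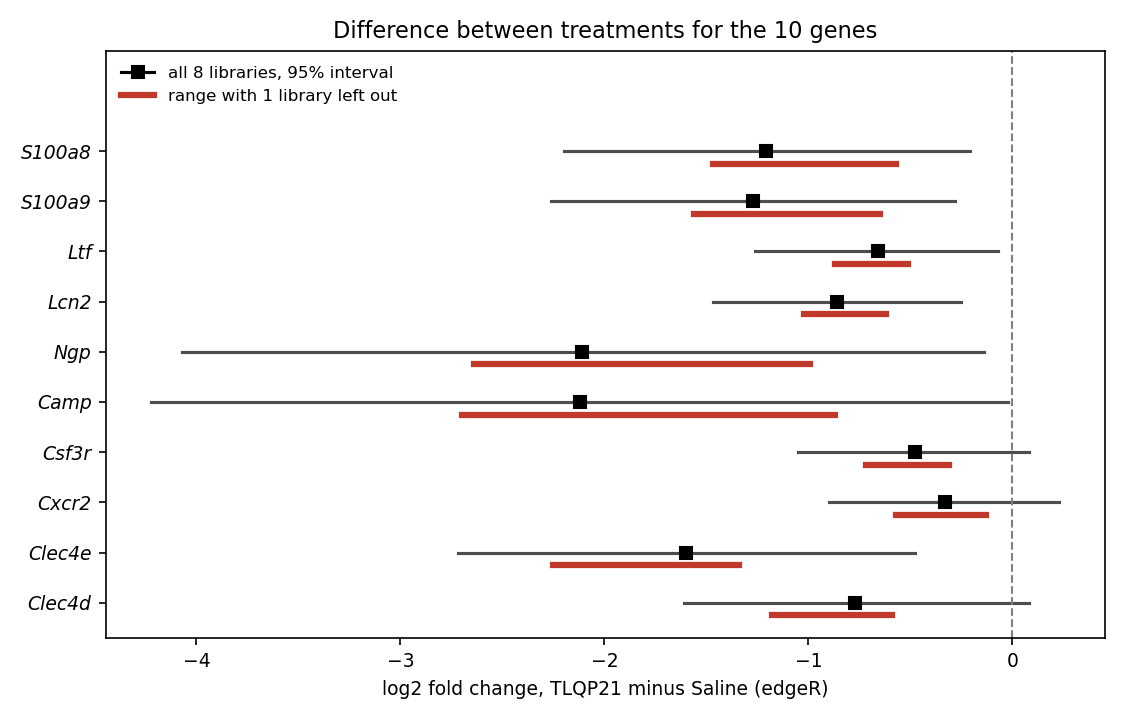
Log2 fold change of each gene, TLQP21 minus Saline, from edgeR (squares, with the 95% interval as a thin line) and its range when each of the 8 libraries is left out in turn (thick line). All points lie below 0, from -0.33 for Cxcr2 to -2.12 for Camp, and the intervals of Csf3r, Cxcr2 and Clec4d include 0.

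Clec4e had the smallest unadjusted p of the 10 genes (0.0100, adjusted p = 0.9999 by edgeR). This innate receptor, which senses dying cells and microbial glycolipids, was measured at 83.5, 74.8, 29.9 and 113 CPM in Saline and at 51.9, 19.9, 11.1 and 16.6 CPM in TLQP21. TLQP21 2, 3 and 4 lay below every Saline library, and TLQP21 1 lay between Saline 3 and Saline 2 (-1.60, SE 0.50, 95% interval -2.72 to -0.48). Its range with 1 library left out was -2.25 to -1.34. Clec4d, which pairs with Clec4e and signals through the same adaptor, was at 36.4, 37.0, 14.7 and 39.4 CPM in Saline and at 32.9, 17.6, 11.5 and 13 CPM in TLQP21 (-0.77, SE 0.38, 95% interval -1.61 to 0.08; -1.18 without TLQP21 1). Saline 3 was low for both lectins and stood with the TLQP21 libraries.

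The ratio of Clec4e to Clec4d per base was 0.740, 0.650, 0.658 and 0.926 in Saline and 0.508, 0.364, 0.313 and 0.411 in TLQP21. Every Saline library lay above every TLQP21 library, on a scale that does not depend on the total of the library. The difference of the mean log2 ratio was -0.91, with an exact two-sided permutation p = 0.0286, the smallest that 4 against 4 libraries can give, and 0.20 after Benjamini-Hochberg adjustment over the 7 ratios of gene pairs that were compared. These ratios were chosen after the levels of the genes had been seen, so their p-values are not independent of that choice. With 1 library left out the difference ran from -1.03 to -0.80. The other 6 ratios, among them S100a9 to S100a8 and Csf3r to Cxcr2, had exact permutation p from 0.0571 to 0.629 with 4 libraries per group. The lowest of these, for S100a9 to Csf3r, was also 0.20 after the same Benjamini-Hochberg adjustment. Of 20 macrophage and monocyte markers, which share Clec4e and Clec4d with neutrophils, 18 lay below 0, with a median of -0.19 and summed levels of 4150 to 5234 CPM in Saline and 2838 to 5111 in TLQP21. Without Saline 2, TLQP21 3 or TLQP21 4, 15 lay below 0. Apoe, also made by hepatocytes, was a large part of these sums, at means of 2189 CPM in Saline and 2012 in TLQP21, and at 2923 in Saline 2. Of the 20 markers 5 reached an unadjusted p under 0.05, all lower, and none passed the threshold. Adgre1, the macrophage antigen F4/80, was at 127, 122, 136 and 128 CPM in Saline and at 107, 81.6, 78.4 and 102 CPM in TLQP21, without overlap (-0.47, SE 0.11), and its unadjusted p of 0.00195 was smaller than that of any of the 10 genes (adjusted p = 0.9999 by edgeR). Ly6c2, a marker of inflammatory monocytes, was at 23.1, 25.2, 12.9 and 23.5 CPM in Saline and at 17.0, 7.95, 6.48 and 5.44 CPM in TLQP21 (-1.20, SE 0.36), low in Saline 3 as the lectins were. Their part in the lectin values was not tested.

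**Figure D3:**
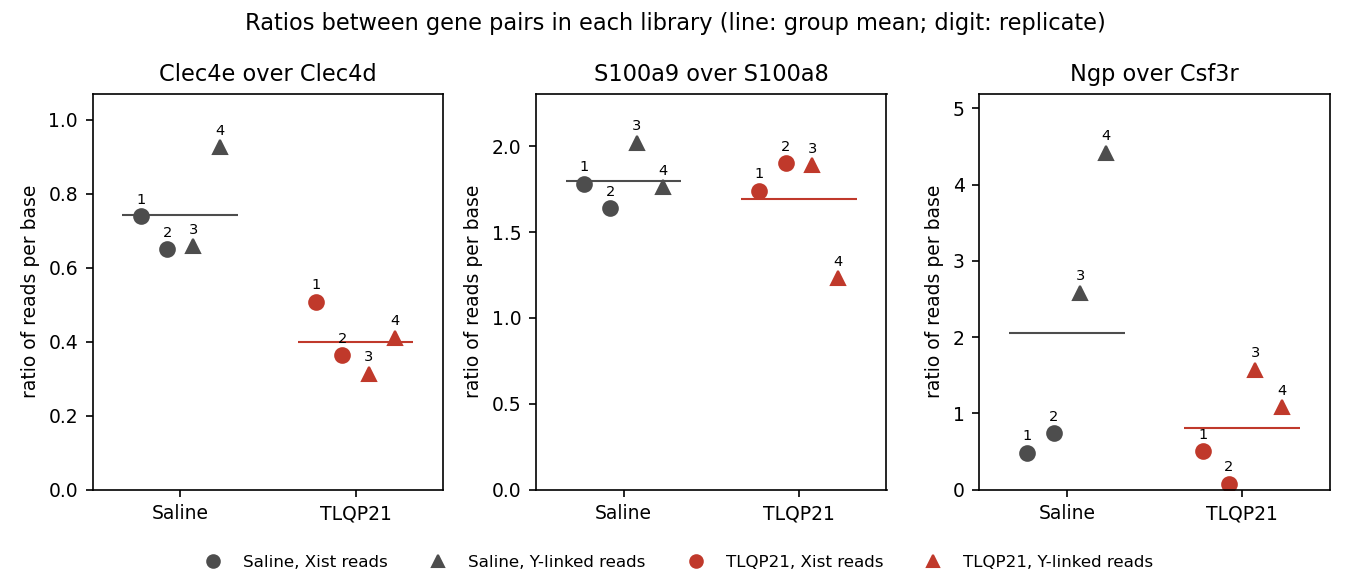
Ratio of reads per base between 3 pairs of genes in each library (vertical axis from 0), with the group mean as a line, the replicate as a digit and the marker shape giving Xist or Y-linked reads. Clec4e over Clec4d does not overlap between groups, S100a9 over S100a8 stays between 1.23 and 2.02, and Ngp over Csf3r runs from 0.0758 to 4.42.

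Over the 8 libraries the genes fell into a large set that varied together and a pair that did not follow it. Pearson correlations of log2 CPM among Ltf, Lcn2, Csf3r, Cxcr2, Clec4e and Clec4d were 0.83 to 0.96 in all 15 pairs, and 0.81 to 0.98 for deviations from the group means. Ngp and Camp correlated at 0.99 with each other and at only 0.21 to 0.49 with those 6 genes, or -0.26 to 0.34 as deviations from the group means. S100a8 and S100a9 lay between, at 0.70 to 0.89 with the 6 and 0.72 to 0.78 with Ngp and Camp. These values describe 8 libraries that share their scaling. The ratio of Ngp to Csf3r per base was 0.482 and 0.743 in Saline 1 and 2 but 2.58 and 4.42 in Saline 3 and 4, and 0.501 and 0.0758 in TLQP21 1 and 2 but 1.57 and 1.08 in TLQP21 3 and 4. It was thus higher in each library with Y-linked reads than in any with Xist reads, whatever the treatment.

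**Figure D4:**
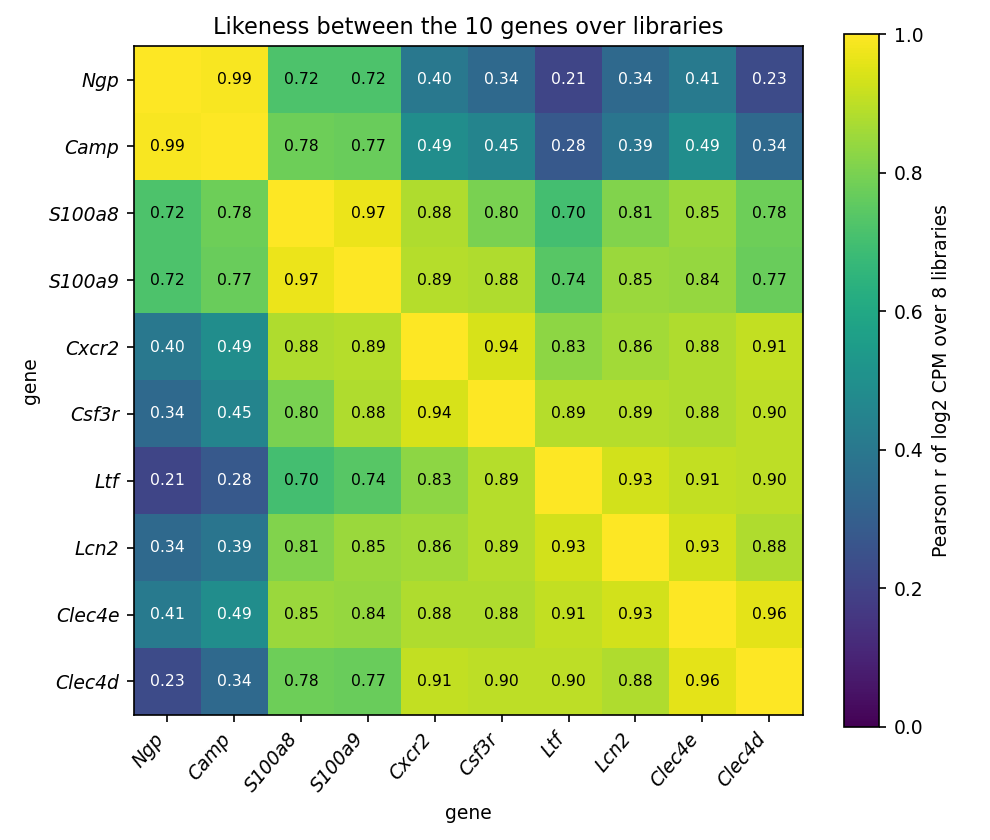
Pearson correlation of log2 CPM over the 8 libraries for each pair of the 10 genes (colour scale from 0 to 1, value in each cell). Ngp and Camp stand apart from the receptors and lectins, with values of 0.21 to 0.49, and reach 0.72 to 0.78 with the calprotectin genes.

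Genes whose pattern was most like that of Ngp and Camp were genes of granulocyte precursors in the marrow. Among 18228 other tested genes, the 5 with the highest Pearson correlation with the mean of these 2 genes over 8 libraries were Ms4a3 (0.992), Elane (0.988), Mpo (0.988), Fcnb (0.976) and Ctsg (0.972), and 17 genes reached 0.9. This pair was singled out after its values were seen. Mpo, myeloperoxidase, was at 4.08, 5.74, 17.3 and 51.0 CPM in Saline and at 4.17, 0.345, 11.3 and 5.22 CPM in TLQP21. Elane, neutrophil elastase, was at 2.25, 3.71, 8.17 and 31.1 CPM and at 2.22, 0.288, 5.41 and 2.78 CPM. Saline 4 was highest and TLQP21 2 lowest for both, as for Ngp. All 10 genes of the precursor granule list lay below 0 (median -1.56, 5 with an unadjusted p under 0.05, none past the threshold), among them Prtn3, proteinase 3 (-1.52, SE 0.58), Gfi1, a transcription factor needed for neutrophil development (-0.81, SE 0.34), and Chil3, a chitinase-like protein (-0.86, SE 0.37). Without Saline 4 these differences were -0.69, -0.60 and -0.45. Serpinb1a, the most abundant gene of the list per base, hardly differed. It was at 73.5 ± 12.5 and 70.7 ± 4.28 CPM (SD, n = 4), with a log2 fold change of -0.05 (SE 0.12). Without Saline 3, and with limma voom, 9 of the 10 listed genes lay below 0.

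For Csf3r and Cxcr2, 196 genes reached a correlation of 0.9, led by Slfn4 (0.993), a Schlafen gene of myeloid cells, Chil1 (0.984), a chitinase-like protein of neutrophil granules, AI838599 (0.984), Gm48786 (0.981) and Fcrlb (0.980). For the mean of all 10 genes, 104 genes reached it, led by the ubiquitin ligase Rnf149 (0.994), the lysosomal enzyme Hexa (0.987), the cell cycle inhibitor Cdkn1a (0.980), the neutrophil gene Mrgpra2b (0.979) and Ficd (0.975). Chil1 averaged 10.3 ± 5.95 CPM in Saline and 4.67 ± 3.33 in TLQP21 (SD, n = 4), and Mrgpra2b at 0.843 ± 0.684 and 0.234 ± 0.303.

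**Figure D5:**
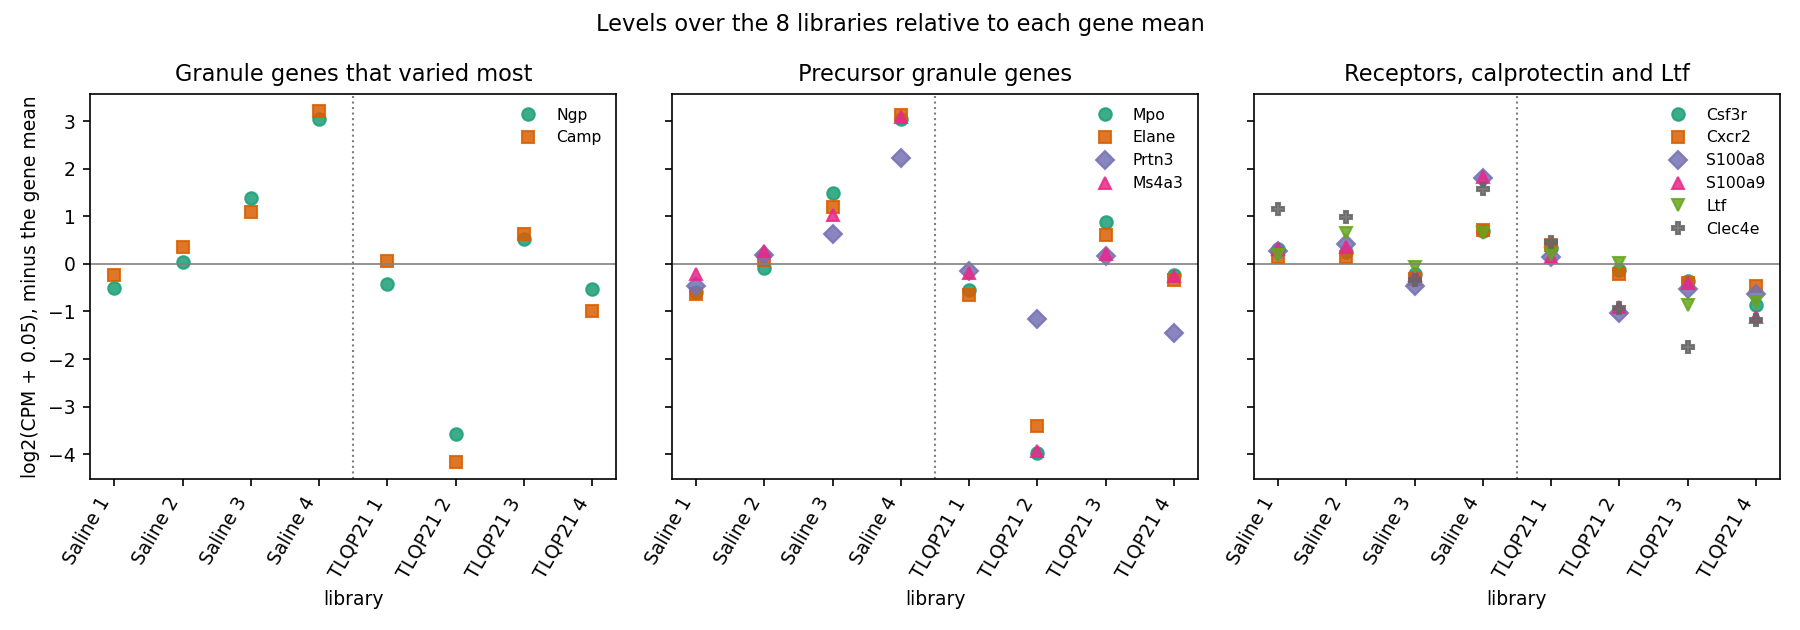
Level of single genes in each of the 8 libraries as log2(CPM + 0.05) minus the mean of the gene (vertical axis), for Ngp and Camp, for 4 precursor granule genes, and for 6 other genes of the set. Ngp, Camp, Mpo, Elane and Ms4a3 share their highest value in Saline 4 and their lowest in TLQP21 2, while the other 6 genes span a narrower range.

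The split by sex-linked transcripts was tested with treatment as a covariate, a comparison added after the data were seen. No member passed between libraries with Y-linked and with Xist reads, while 0.373% of tested genes (68) did. Of the 10 genes 4 lay above 0, against 52.2% of tested genes, and 13.6% of tested genes had an unadjusted p under 0.05. Among the members, Ngp (0.0124, higher), Ltf (0.0353, lower) and Clec4d (0.0427, lower) had an unadjusted p under 0.05 by edgeR. Ngp was 2.03 higher on the log2 scale with Y-linked reads (SE 0.65, adjusted p = 0.240 by edgeR), Camp 1.71 (SE 0.82, adjusted p = 0.404), and Clec4e -0.74 (SE 0.46) and Clec4d -0.74 (SE 0.31) on the other side of 0. Without Saline 4, Lcn2 passed (-0.70, adjusted p = 0.0291 by edgeR), and the differences of S100a8 and S100a9 turned from 0.25 and 0.20 to -0.48 and -0.50. With no filter on low counts 4 members passed (Ltf, Ngp, Camp and Clec4d, adjusted p from 0.000167 to 0.0338 by edgeR), among 804 genes in all. That fit tested every gene with any read, and the share that passed is not given here. Among other genes, Epx, eosinophil peroxidase (4.65, SE 0.66, adjusted p = 0.0239 by edgeR), and Il6, a cytokine (3.05, SE 0.22, adjusted p = 0.000589), passed in this comparison.

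Within the libraries with Xist reads and within those with Y-linked reads, log2 ratios of the group means were -1.07 and -2.37 for Ngp, -0.97 and -2.49 for Camp, -0.61 and -1.85 for S100a9, -0.68 and -1.65 for S100a8, -1.14 and -2.37 for Clec4e, and -0.54 and -1.14 for Clec4d. They were -0.44 and -1.39 for Lcn2, -0.32 and -1.16 for Ltf, -0.15 and -0.90 for Csf3r, and 0.0 and -0.73 for Cxcr2. All 10 interaction terms lay below 0, against 49.5% of tested genes, from -0.60 to -1.49, and none passed (smallest adjusted p = 0.842 by edgeR, 0.0% of tested genes passed, 4.8% had an unadjusted p under 0.05 and of the members Ltf alone). With no filter on low counts 8 of the 10 passed, among 447 genes in all. That fit tested every gene with any read, more than the 18238 above, and the share that passed is not given here. Without Saline 4 the terms of S100a8, S100a9, Clec4e and Clec4d turned to 0.56, 0.12, 0.02 and 0.27, and without TLQP21 1 those of Ngp and Camp turned to 1.04 and 2.02, so the direction of these 6 terms rested on single libraries.

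Csf3 and the Cxcr2 ligands named below lay on the same side of 0 as the receptors. They belong to a wider list of neutrophil chemoattractants and growth factors. It also holds genes such as Csf1, Il6 and Tnf, which are not ligands of the receptors among the 10 genes. All 17 tested genes of that list lay below 0 (median -0.78; 16 without Saline 4), 5 had an unadjusted p under 0.05 and none passed. Csf3, the ligand of Csf3r, was at 5.79, 4.87, 13.7 and 20.1 CPM in Saline and at 6.19, 3.34, 3.85 and 2.59 CPM in TLQP21 (-1.48, SE 0.46). Of the Cxcr2 ligands, Cxcl1 averaged 37.3 ± 23.2 and 17.3 ± 4.63 CPM (-1.10, SE 0.40), and Cxcl5, the most abundant of them, at 294 ± 151 and 161 ± 50.8 (-0.87, SE 0.34; SD, n = 4). Saline 4 held the highest value of each of these 3 ligands, and without it the differences were -1.03 for Csf3, -0.66 for Cxcl1 and -0.48 for Cxcl5. Other listed Cxcr2 ligands were Cxcl2 (-1.25, SE 0.56), Cxcl3 (-1.06, SE 0.67) and Ppbp (-0.34, SE 0.42). Cxcl2 was at 256 CPM in Saline 4 and 47.0 to 59.3 in the other Saline libraries. Il1a, an inflammatory cytokine, was at 57.3 CPM in Saline 4 and 21.0 to 22.9 in the other Saline libraries. Of the other listed genes, Il17a had 10 reads in all 8 libraries and, like Il17f, did not pass the filter.

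Genes of a list of other neutrophil genes, not all confined to neutrophils, lay lower in 31 of 32 tested cases (median -0.77). Of the 32, 14 had an unadjusted p under 0.05 and none passed. Without Saline 4, 26 lay lower. Ly6g, the antigen that defines mouse neutrophils, was present but low, at 0.715, 0.525, 1.03 and 2.57 CPM in Saline and at 0.821, 0.288, 0.465 and 0.309 CPM in TLQP21 (-1.36, SE 0.55), a total of 192 reads. Mmp9, a gelatinase of tertiary granules, was at 51.1, 52.0, 46.2 and 108 CPM in Saline and at 58.1, 39.9, 32.4 and 31.7 CPM in TLQP21 (-0.67, SE 0.29). Acod1, the enzyme that makes itaconate, was at 108 ± 46.2 and 37.8 ± 31.2 CPM (-1.51, SE 0.52), and Trem3, a myeloid receptor, at 3.04 ± 1.33 and 1.38 ± 0.285 (-1.14, SE 0.33; SD, n = 4). Hp, haptoglobin, which hepatocytes also make, was at 639 CPM in Saline 2 and 37.8 to 153 in the other Saline libraries, and its log2 fold change was -1.70 with that library and -0.43 without it.

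Of 24 tested signalling partners of these receptors, 22 lay below 0 (median -0.19), 5 with an unadjusted p under 0.05 and none past the threshold. Malt1, part of the complex downstream of Syk and Card9, was at 74.0 ± 4.61 and 56.2 ± 8.02 CPM (-0.40, SE 0.11). Socs3, the feedback inhibitor of Csf3r signalling, was at 182, 204, 249.6 and 330.4 CPM in Saline and at 175, 148, 177 and 126 CPM in TLQP21 (-0.63, SE 0.19), without overlap of the groups. Syk, the kinase below the lectin receptors, was at 83.0 ± 14.7 and 56.1 ± 15.5 CPM (-0.56, SE 0.19), and their adaptor Fcer1g at 100.3 ± 15.1 and 79.5 ± 21.3 (-0.34, SE 0.18; SD, n = 4).

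Markers of other cells were mixed. Of 10 tested markers of eosinophils, basophils and mast cells, 6 lay below 0 (median -0.14; 3 without Saline 4), as did 6 of 10 lymphocyte markers (median -0.23), all 6 red cell markers (median -0.88) and all 12 acinar markers (median -0.47; 1 of 12 without Saline 4). An unadjusted p under 0.05 was reached by 3 red cell markers, 1 lymphocyte marker and 0 of the other 2 lists. All 6 red cell markers stayed below 0 without any single library. Hbb-bt, a globin (-1.12, SE 0.32), had an unadjusted p of 0.00643 by edgeR, smaller than that of any of the 10 focus genes. All 7 tested hepatocyte markers lay below 0, with their level in Saline 2 alone, and 4 of 7 did without that library. Of 11 tested S100 relatives and acute phase genes 5 lay below 0 (median 0.05), or 3 without Saline 2 and 3 without TLQP21 4. S100a10 and S100a11, relatives of calprotectin made by many cell types, were at 318 ± 36.4 and 509.7 ± 77.8 CPM in Saline and at 369 ± 60.2 and 586 ± 62.2 in TLQP21 (0.21, SE 0.13, and 0.20, SE 0.13; SD, n = 4). No gene of these lists passed the threshold between treatments.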

How the data were processed

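RNA of 8 tumour libraries was extracted with the RNeasy Plus Universal kit, built into libraries with NEBNext Ultra reagents and sequenced in pairs on an Illumina NovaSeq, per the labels' protocols. The deposited table holds whole-number read counts per gene, which the authors made with HISAT2 2.0.5 and featureCounts 1.5.0-p3 on GRCm38, per the submitters' processing notes, which also name DESeq2 1.32.0. The sources used here name no strand setting and no annotation release. No pair of libraries agreed within sampling noise (smallest chi-square per degree of freedom 19).

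From the counts, 18238 of 54532 genes passed filterByExpr by group and were fitted with edgeR 4.0.16 (TMM scaling, quasi-likelihood test, R 4.3.3), with Benjamini-Hochberg adjustment over all tested genes and a threshold of 0.05. CPM use TMM-scaled library sizes, and FPKM divide CPM by the gene length in kb given in the table. Library totals of 28358465 to 33536087 counts limit the precision of low genes only. The fit used all 8 libraries without covariates. Alternatives were RLE, upper-quartile and plain scaling, no filter, a filter of 10 counts in 4 libraries, each library left out, the replicate number as a block, the sex-linked split as a covariate, acinar genes left out, DESeq2 1.42.0 and limma 3.58.1 voom with quality weights. Of DESeq2's adjusted p-values 33752 were NA and 20780 were not. The pipeline was tested on simulated data. Same-numbered libraries were not treated as pairs.

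Libraries were split by Xist and by Y-linked reads (Ddx3y, Eif2s3y, Kdm5d and Uty), and this comparison, its alternatives and the ratios of gene pairs were added after the data were seen. Ratios were compared with exact two-sided permutation tests over 70 assignments. The named genes of each list were those with the smallest p and the most abundant one, plus the 5 genes most correlated with a profile. Other genes, such as Ly6g, Mpo, Elane and Il6, were named after their values were seen. The members and lists were chosen with earlier results of these data known. Promoter sequences come from RefSeq (GRCm38.p6), where all 10 genes matched; 9 had at least 50 bases upstream of the gene model.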

Additional observations from a re-analysis of the deposited data

Results flagged for a closer look

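In groups of 4 libraries, a value was singled out where its gap to the nearest other library, divided by the range of the group, exceeded Dixon's 95% critical value. Chance does this in about 1 of 20 groups where values are normal. The rule was applied to CPM, which need not be normal, and the groups share the same libraries. The number singled out therefore cannot be read against that share. In all, 16 of 130 groups were singled out, 3 of them among the 20 groups of the 10 genes. S100a9 was at 328 CPM in Saline 4 and 77.6 to 117 in the other Saline libraries. Camp was at 46.6 CPM in Saline 4 and 4.25 to 10.7 in the others. Clec4d was low in Saline 3, at 14.7 CPM against 36.4 to 39.4.

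Among the other genes named, Saline 4 stood apart for Ms4a3 (6.47 CPM against 0.613 to 1.51), Il1a (57.3 against 21.0 to 22.9) and Cebpb, a C/EBP factor (414 against 144 to 166). Ly6c2, a monocyte gene, was low in Saline 3 (12.9 CPM against 23.1 to 25.2), and Hba-a2, a globin, was low in Saline 1 (18.0 against 42.3 to 45). Saline 2 stood apart for 8 genes that hepatocytes make: Apoe (2923 CPM), Alb (2543), Hpx (666), Ahsg (316), Saa1 (272), Apoa1 (258), Serpina1b (133) and Orm1 (132). In the other Saline libraries Alb was at 0.0681 to 0.34 CPM and Apoe at 1859 to 2038.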

How the results depend on the processing

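Under every alternative run, all 10 genes stayed below 0 and none passed between treatments. The median difference ran from -1.04 to -0.93, and from -1.33 (without TLQP21 1) to -0.63 (without Saline 4) with 1 library left out. The number with an unadjusted p under 0.05 was 2 to 8 with 1 library left out. DESeq2 passed 4 genes and limma voom 1, both lower. With no filter on low counts the interaction passed 8 members and 447 genes, and the sex-linked split 4 members and 804 genes; the cause was not tested. With 1 library left out, 0 to 69 genes passed for the interaction, and 23 to 77 genes and 0 to 1 members for the split.

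With 1 library left out, the number of genes below 0 was 1 to 12 for acinar markers, 4 to 7 for hepatocyte markers, 3 to 8 for eosinophil, basophil and mast cell markers and 3 to 6 for acute phase and S100 relatives. With limma voom, 2 epithelial markers lay below 0. Some single differences changed sign when 1 library was left out. Ranges were -0.12 to 0.06 for Serpinb1a (0.06 without Saline 3, and 0.05 with limma voom), -0.27 to 0.06 for Apoe (0.05 without Saline 2, 0.06 without TLQP21 4) and -7.81 to 0.09 for Hpx (0.09 without Saline 2). Without Saline 4, Cela3b turned to 0.07 (range -1.03 to 0.07), Cela2a to 0.20 (-0.95 to 0.20), Ctrb1 to 0.13 (-0.73 to 0.13) and Epx to 0.36 (-1.99 to 0.36). For the split, S100a8 ran from -0.48 to 0.63 and S100a9 from -0.50 to 0.56, lowest without Saline 4. For the interaction, the ranges were -1.71 to 0.56 for S100a8, -1.94 to 0.12 for S100a9, -1.89 to 0.02 for Clec4e and -1.15 to 0.27 for Clec4d, each highest without Saline 4. They were -2.16 to 1.04 for Ngp and -2.54 to 2.02 for Camp, highest without TLQP21 1. The cause was not tested.

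The labels share numbers across groups without saying what they pair. Deviations of same-numbered libraries correlated at -0.0533 to 0.271, over 0.1 in 3 of 4 pairs, and 1 of 8 libraries correlated best with its own number. With the replicate number as a block, 10 members lay below 0, 6 had an unadjusted p under 0.05, 0 passed and the median difference was -0.93.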
